A study of Homo sapiens with 9 samples.

Results

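Polycomb repressive complex 2 (PRC2) and the enzymes that remove its mark were described here at the mRNA level, in 10 genes of the 19930 in the deposited table. The genes were chosen by name, with earlier results of these data known. They were the catalytic subunits EZH2 and EZH1, the core subunits SUZ12 and EED, and the histone-binding subunits RBBP4 and RBBP7. The others were the accessory subunits JARID2 and AEBP2 and the H3K27 demethylases KDM6A and KDM6B. All 10 were found under their own symbol, and all 10 passed the filter of a mean of at least 1 FPKM (fragments per kilobase of transcript, scaled by the number of fragments mapped), which left 12884 genes for testing.

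PRC2 places methyl groups on lysine 27 of histone H3 (H3K27), and the trimethylated form marks genes that are kept silent, among them many developmental regulators such as the HOX genes. EZH2 or its paralog EZH1 carries the catalytic SET domain, EED and SUZ12 are needed for its activity, RBBP4 and RBBP7 are interchangeable WD40-repeat subunits that bind histones, and JARID2 and AEBP2 belong to the same form of the complex. KDM6A (UTX) and KDM6B (JMJD3) take methyl groups off H3K27. EZH2 is expressed most strongly in dividing cells and is often high in breast tumors, whereas EZH1 is found in dividing and resting cells alike.

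The libraries were labelled as MDA-MB-453, a human breast cancer line, with cells harvested 48 h after transfection. The labels put 3 libraries in each of 3 groups: X453_1 and X453_2, both labelled as knockdown of the long noncoding RNA LINC00673, and X453_NC, the scramble control. The study used siRNAs for this knockdown, but the labels do not say which siRNA the numbers 1 and 2 stand for. LINC00673 itself was not analysed here, so the knockdown was not checked in these libraries. The study describes its results in general as coming from independent experiments, but the labels do not tie the 3 libraries of a group to separate cultures, so that P values measure the spread between these libraries, which may be technical.

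The defining genes of the labelled line did not all match the label. FOXA1, a luminal transcription factor, was listed at no more than 0.0133 FPKM and GATA3 at 0.433 to 0.767 FPKM in the group means. The markers ERBB2, KRT8, KRT18, KRT19 and EPCAM were above 1 FPKM, and the markers fixed for the line summed to 7204 to 7839 FPKM in X453_NC, 6076 to 6712 in X453_1 and 6217 to 6874 in X453_2. KRT8, KRT18 and KRT19, with means of 3617, 2433 and 1180 FPKM in X453_NC, made up most of this sum. Of 8 markers of blood, endothelial, fibroblast, basal and muscle cells, 5 or 6 were below 1 FPKM in each group, whereas VIM had a mean of 378 to 436 FPKM, and this list summed to 371 to 397 FPKM in X453_NC, 438 to 448 in X453_1 and 431 to 448 in X453_2. VIM made up most of the sum of this list. The part of these shifts in the results was not tested, and in bulk RNA fewer cells of a type and less RNA per cell cannot be told apart. The depth was 23.5 to 27.6 M fragments per library, as worked out from the smallest steps of the FPKM scale. Libraries correlated at r = 0.995 to 0.996 within groups and at 0.955 to 0.990 between groups, and no library stood apart from its group.

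In the control libraries RBBP7 was the most abundant of the 10 mRNAs and JARID2 the least. On the FPKM scale, which divides by length, the mean levels in X453_NC were 127.4 for RBBP7, 44.5 for EZH2, 26.8 for RBBP4, 15.3 for KDM6B, 12.3 for EED, 11.4 for SUZ12, 8.01 for EZH1, 7.24 for KDM6A, 6.25 for AEBP2 and 6.20 for JARID2 (n = 3). The 3 libraries of each gene lay apart from those of the next in this order, except for AEBP2 and JARID2, which overlapped. RBBP7 stood at the 96.4th percentile of the genes tested and JARID2 at the 37.8th. With the longest transcript of each gene, these levels correspond to an estimated 821 (AEBP2) to 7044 (RBBP7) fragments per gene and library. These are upper estimates. The counting error of 1.34% to 3.49% at the lowest library of each gene is therefore a lower estimate.

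**Figure D1:**
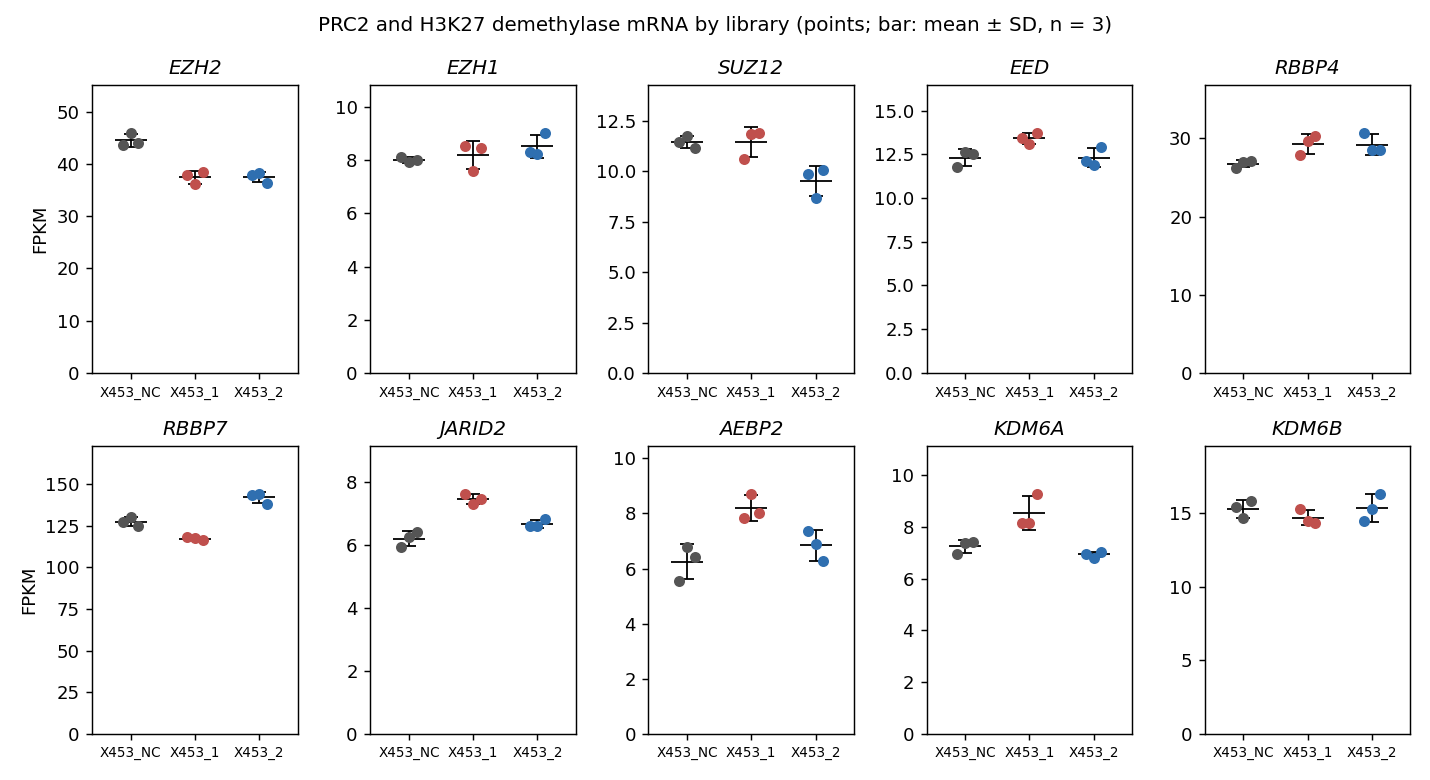
FPKM of the 10 genes (vertical axes, starting at 0) in each of the 9 libraries, by group (horizontal axes). Points are libraries and bars are the mean ± SD (n = 3); EZH2 was lower in X453_1 and X453_2 (36.1 to 38.4 FPKM) than in X453_NC (43.6 to 45.9 FPKM), and RBBP7 was lowest in X453_1 and highest in X453_2.

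On log2(FPKM + 1), none of the 10 genes met the criteria of the study for differential expression. These are a fold change of at least 1.3 (0.38 on the log2 scale) with an unadjusted P of at most 0.05. They were applied with limma to log2(FPKM + 1), on which all fold changes below are given. In mean FPKM without the added 1, AEBP2 was 31.1% higher in X453_1 than in X453_NC, past the limit of 1.3. The criteria called 26.7% of all genes tested between X453_1 and X453_NC, 34% between X453_2 and X453_NC and 7.64% between X453_2 and X453_1. With no limit on the fold change, 7, 4 and 6 of the 10 had an unadjusted P of at most 0.05, as did 67.7%, 72.9% and 52% of all genes in the same order. After Benjamini-Hochberg adjustment over all genes tested, 5 of the 10 were higher and 2 lower in X453_1 than in X453_NC (limma adjusted P of at most 0.05), against 32.1% higher and 32.3% lower among all genes. In X453_2, 2 were higher and 2 lower, against 26% and 44.8% of all genes. This balance depended on scaling: with libraries scaled by the median ratio, EZH1, JARID2 and AEBP2 also passed as higher in X453_2, and SUZ12 no longer passed. "Rose" and "fell" are used below only for differences that pass this adjusted P. Both knockdown groups were compared with the same 3 control libraries, so the 2 comparisons are not independent.

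On the FPKM as deposited, the differences were small beside those of other genes. The median absolute log2 fold change of the 10 was 0.12 in X453_1 and 0.10 in X453_2, and over all genes tested it was 0.22 and 0.26. Their signed median was 0.07 in X453_1 and 0.04 in X453_2, and that of all genes was 0.00 and -0.10. With libraries scaled by the median ratio, the signed median of all genes in X453_2 was -0.0041. The medians of the 10 are not reported under that setting. The 95% confidence interval (CI) farthest from 0 ended at 0.51 for X453_1 (AEBP2) and at -0.38 for X453_2 (SUZ12). The groups did not overlap, that is, all 3 libraries of a group lay above or below all 3 of the other, for 7 of the 10 genes in X453_1 and 6 in X453_2. Among all genes tested this was so for 70% and 73%.

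**Figure D2:**
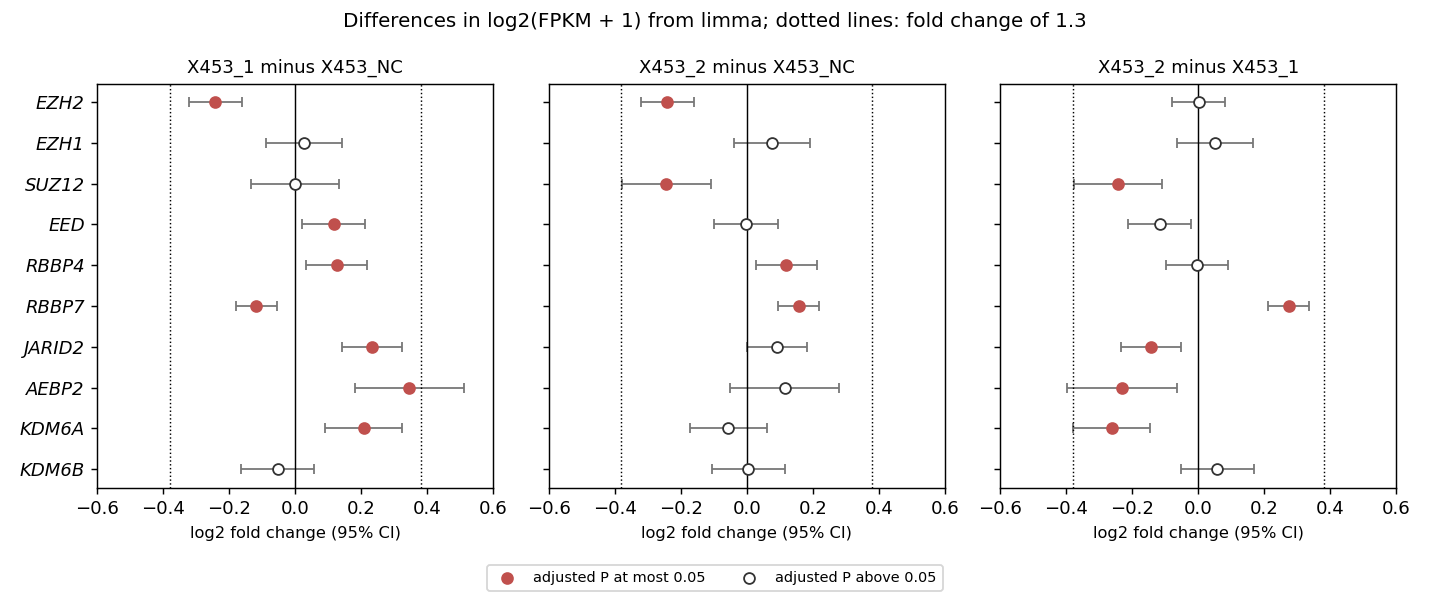
Log2 fold changes of the 10 genes (horizontal axes) with their 95% CI from limma, for each pair of groups. Filled points have an adjusted P of at most 0.05, open points do not, and dotted lines mark a fold change of 1.3; no gene lies beyond them, and EZH2 lies at -0.24 in both knockdown groups.

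EZH2 (chr7:148504464-148638283, minus strand, in the build GRCh37.p13 used for all gene positions here), the main methyltransferase subunit of PRC2 in dividing cells, fell in both knockdown groups by a similar amount. It was at 43.61, 45.93 and 43.98 FPKM in X453_NC, at 37.89, 36.09 and 38.42 FPKM in X453_1, and at 37.89, 38.19 and 36.43 FPKM in X453_2. Every knockdown library was below every control library. The mean dropped from 44.5 ± 1.25 to 37.5 ± 1.22 FPKM in X453_1 and to 37.5 ± 0.942 FPKM in X453_2 (SD, n = 3), that is, it fell by 15.8% in X453_1 and fell by 15.7% in X453_2. The log2 fold change was -0.24 (SE 0.04, 95% CI -0.32 to -0.16, limma adjusted P = 0.000214) in X453_1 and -0.24 (SE 0.04, 95% CI -0.32 to -0.16, adjusted P = 0.000179) in X453_2. The knockdown groups differed from each other by 0.00 (95% CI -0.08 to 0.08, adjusted P = 0.978), or by 0.11 with libraries scaled by the median ratio (adjusted P = 0.0334). In X453_2 the size depended on scaling: it was -0.14 with libraries scaled by the median ratio and -0.11 after a correction for transcript length, with an adjusted P of 0.00475 and 0.0188.

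EZH1 (chr17:40852293-40897114), the paralog with weaker catalytic activity, did not pass the test in either group. Its level was 8.13, 7.91 and 8 FPKM in X453_NC, 8.53, 7.59 and 8.44 in X453_1, and 8.30, 8.22 and 9.02 in X453_2. The libraries of X453_1 lay on both sides of the controls, and those of X453_2 all lay above them. The log2 fold change was 0.03 in X453_1 (95% CI -0.09 to 0.14, adjusted P = 0.676) and 0.08 in X453_2 (95% CI -0.04 to 0.19, adjusted P = 0.203). With scaling by the median ratio the difference of X453_2 was 0.17 with an adjusted P of 0.0128, and it passed in 3 of 17 alternatives.

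As the catalytic paralogs compete for the same place in PRC2, their ratio was taken within each library, where the scaling of libraries cancels. EZH2 was at 5.36, 5.81 and 5.50 times the level of EZH1 in X453_NC, at 4.44, 4.76 and 4.55 times in X453_1, and at 4.57, 4.65 and 4.04 times in X453_2. All 6 knockdown libraries were below the 3 controls, and EZH2 made up 84.3% to 85.3% of the summed FPKM of both genes in X453_NC, 81.6% to 82.6% in X453_1 and 80.2% to 82.3% in X453_2. The log2 ratio differed from the controls by -0.28 in X453_1 and by -0.33 in X453_2. Each had P = 0.1 in a two-sided exact permutation test, the smallest that 3 against 3 libraries can give, and 0.15 after adjustment over the 9 ratio tests made.

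The start site of EZH2 is shown because EZH2 is known as a target of E2F, the transcription factor family that drives genes of S phase, and letters of the E2F site were searched in the promoters of all 10 genes. In windows of 300 bases around the starts listed by RefSeq (GRCh38.p14, 250 bases before and 50 after), TTTCCCGC, TTTCGCGC, TTTGCCGC or TTTGGCGC on either strand was found in 4 of the 15 windows of the 10 genes, each of a different gene, and in 3.3% of 35116 windows of all genes. The matches are printed in capitals with 10 bases on each side, read along the strand of the gene.
EZH2, chr7:148884273-148884300 (-), first base of the match 1 base after the start base: ggctgccgcgTTTGGCGCtcggtccggt
EZH1, chr17:42745138-42745165 (-), from 115 bases before the start, with TTTGCCGC on the other strand: cggggttttgGCGGCAAAtgacagtagt
SUZ12, chr17:31936808-31936835 (+), from 189 bases before the start: gacccctaatTTTCCCGCgaattcagtt
AEBP2, chr12:19440439-19440466 (+), from 150 bases before the start: aaggcgacgtTTTGCCGCgatccccctg
The letters CCAAT, on either strand, were in 9 of the 15 windows, from 7 of the 10 genes, and in 34.6% of all windows. The EZH2 window with the E2F letters held 4 matches. The windows of RBBP4 overlap and share a match. The genes with E2F letters did not share a direction: EZH2 fell in both groups, SUZ12 fell in X453_2, AEBP2 rose in X453_1 and EZH1 passed in neither. A match of letters is a description and not a site shown to be bound.

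SUZ12 (chr17:30264029-30328064), the zinc-finger subunit that holds the core together, fell in X453_2 and not in X453_1. It was at 11.44, 11.73 and 11.15 FPKM in X453_NC, at 10.61, 11.85 and 11.90 in X453_1, and at 9.84, 8.67 and 10.05 in X453_2. The X453_2 libraries were below the other 6, and those of X453_1 spread around the controls. The mean fell by 16.8% in X453_2, with a log2 fold change of -0.24 (SE 0.06, 95% CI -0.38 to -0.11, adjusted P = 0.00441), and the difference of X453_1 was 0.00 (95% CI -0.13 to 0.13, adjusted P = 0.999). X453_2 also differed from X453_1, by -0.24 (adjusted P = 0.009). Scaling by the median ratio reduced the difference of X453_2 from X453_NC to -0.15 (adjusted P = 0.0504) and that from X453_1 to -0.15 (adjusted P = 0.0804), and a length correction to -0.12 (0.0745) and -0.13 (0.11). After the GC correction the difference from X453_1 was -0.11 (0.133), and that from X453_NC still passed. Of 100-base windows of SUZ12 transcripts, 2.6% also occur in the pseudogene SUZ12P1.

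EED (chr11:85955426-85989852), the WD40 subunit that binds trimethylated H3K27 and stimulates the enzyme, rose slightly in X453_1. It was at 11.78, 12.63 and 12.53 FPKM in X453_NC, at 13.44, 13.11 and 13.72 in X453_1, and at 12.11, 11.87 and 12.93 in X453_2. The X453_1 libraries were above the other 6. The log2 fold change was 0.12 in X453_1 (SE 0.04, 95% CI 0.02 to 0.21, adjusted P = 0.0376) and 0.00 in X453_2 (95% CI -0.10 to 0.10, adjusted P = 0.981). The first did not hold when the X453_1 library without a suffix (adjusted P = 0.0827), X453_1 r2 (0.113), the X453_NC library without a suffix (0.13) or X453_NC r2 (0.0567) was left out, and it was 0.02 (0.772) after a correction for GC content, which is 33% in EED.

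Of the histone-binding paralogs, RBBP7 (chrX:16862773-16888534), which is also a subunit of the HAT1 histone acetyltransferase, fell in X453_1 and rose in X453_2. It was at 127.37, 130.10 and 124.76 FPKM in X453_NC, at 118.31, 117.48 and 116.20 in X453_1, and at 143.66, 144.36 and 138.37 in X453_2. The 3 groups did not overlap, with X453_1 below and X453_2 above the controls. The mean fell by 7.91% in X453_1 (log2 fold change -0.12, SE 0.03, 95% CI -0.18 to -0.06, adjusted P = 0.00392) and rose by 11.6% in X453_2 (0.16, SE 0.03, 95% CI 0.10 to 0.22, adjusted P = 0.00057). The difference between X453_2 and X453_1 was 0.27 (95% CI 0.21 to 0.34, adjusted P = 8.8e-05), and it reached 0.38 with scaling by the median ratio and 0.39 after the GC or the length correction, past the limit of 1.3.

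RBBP4 (chr1:33116749-33151812), whose protein shares most of its sequence with that of RBBP7, rose in both groups, by about the same amount without a GC or length correction. It was at 26.26, 26.98 and 27.10 FPKM in X453_NC, at 27.92, 29.62 and 30.36 in X453_1, and at 30.69, 28.46 and 28.47 in X453_2. All 6 knockdown libraries were above the controls. The log2 fold change was 0.12 in X453_1 (SE 0.04, 95% CI 0.03 to 0.22, adjusted P = 0.0242) and 0.12 in X453_2 (SE 0.04, 95% CI 0.03 to 0.21, adjusted P = 0.0258). In X453_1 it lost the threshold after a GC correction (0.05, adjusted P = 0.156) or a length correction (0.04, 0.358) and without X453_1 r1 (0.0713), X453_1 r2 (0.0932) or the X453_NC library without a suffix (0.0751). In X453_2 it lost it without the unsuffixed library of X453_2 (0.0867) or of X453_NC (0.0777). X453_2 differed from X453_1 by -0.004 (95% CI -0.098 to 0.089, limma adjusted P = 0.941), or by 0.14 after the length correction. The gene overlaps SYNC on the opposite strand over 6306 bases, whose mean was 0.79 FPKM in X453_NC, and whether counting used strand was not stated. Of its 100-base windows, 1.2% occur in other genes.

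The ratio of RBBP4 to RBBP7 was 0.210 ± 0.00606 in X453_NC, 0.250 ± 0.0128 in X453_1 and 0.206 ± 0.00824 in X453_2 (SD, n = 3). The X453_1 libraries were above the other 6, and those of X453_2 overlapped the controls. The log2 ratio differed from the controls by 0.25 in X453_1 (exact permutation P = 0.1, the smallest possible) and by -0.03 in X453_2 (exact permutation P = 0.4).

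**Figure D3:**
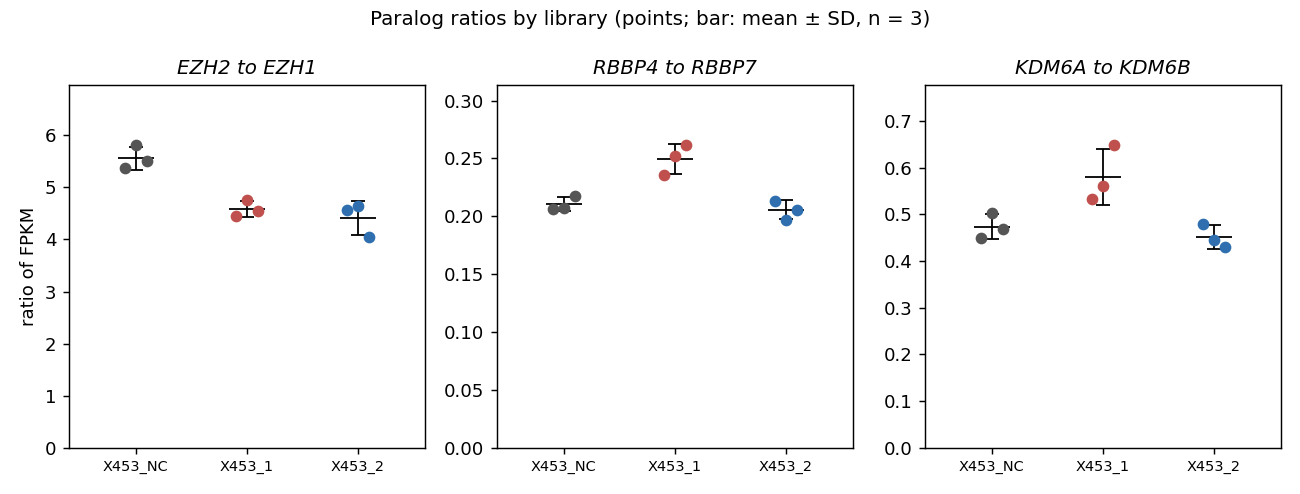
Ratio of FPKM within each library for EZH2 to EZH1, RBBP4 to RBBP7 and KDM6A to KDM6B (vertical axes, starting at 0), by group. Points are libraries and bars are the mean ± SD (n = 3); EZH2 to EZH1 is below the controls in both knockdown groups, and the other ratios are above them in X453_1 alone.

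The accessory subunits JARID2 and AEBP2 were higher in X453_1. JARID2 (chr6:15246206-15522273), a catalytically inactive relative of the JmjC demethylases that helps to recruit PRC2, was at 5.94, 6.24 and 6.41 FPKM in X453_NC, at 7.62, 7.29 and 7.46 in X453_1, and at 6.58, 6.60 and 6.81 in X453_2. The 3 groups did not overlap, and X453_2 lay between the others. JARID2 rose by 20.3% in X453_1 in mean FPKM, with a log2 fold change of 0.23 (SE 0.04, 95% CI 0.14 to 0.32, limma adjusted P = 0.000635). In X453_2 the difference of 0.09 did not pass (95% CI 0.00 to 0.18, limma adjusted P = 0.0691). With scaling by the median ratio the difference of X453_2 was 0.18 (adjusted P = 0.0021), and it passed in 3 of 17 alternatives.

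AEBP2 (chr12:19592608-19675173), a zinc-finger protein of the same form of PRC2, had the largest difference of the 10 genes in X453_1. It was at 5.56, 6.79 and 6.41 FPKM in X453_NC, at 7.85, 8.72 and 8.03 in X453_1, and at 7.38, 6.89 and 6.27 in X453_2. The X453_1 libraries were above the other 6, and X453_2 overlapped the controls. AEBP2 rose by 31.1% in X453_1 in mean FPKM, from 6.25 ± 0.63 to 8.20 ± 0.459 (SD, n = 3), with a log2 fold change of 0.35 (SE 0.07, 95% CI 0.18 to 0.51, adjusted P = 0.00231), and in X453_2 the log2 fold change was 0.12 (95% CI -0.05 to 0.28, adjusted P = 0.191), or 0.21 with scaling by the median ratio (adjusted P = 0.0274). The difference of X453_2 passed in 3 of 17 alternatives. AEBP2 is the gene closest to the limit of the study: adding 0.1 FPKM in place of 1 before the logarithm, or leaving out X453_NC r1, gave 0.39 and 0.40 in X453_1 and a call.

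Of the demethylases, KDM6A rose in X453_1 and KDM6B passed in neither group. KDM6A (chrX:44732421-44971857), a subunit of the KMT2C and KMT2D complexes as well as a demethylase, was at 6.94, 7.37 and 7.42 FPKM in X453_NC, at 8.16, 8.14 and 9.28 in X453_1, and at 6.95, 6.81 and 7.03 in X453_2. The X453_1 libraries were above the other 6, with r2 the highest. The log2 fold change was 0.21 in X453_1 (SE 0.05, 95% CI 0.09 to 0.32, adjusted P = 0.00597) and -0.06 in X453_2 (95% CI -0.17 to 0.06, adjusted P = 0.363), and the knockdown groups differed by -0.26 (95% CI -0.38 to -0.15, adjusted P = 0.00324).

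KDM6B (chr17:7737544-7758118), a demethylase whose gene is induced by inflammatory and differentiation signals, was at 15.44, 14.66 and 15.84 FPKM in X453_NC, at 15.33, 14.50 and 14.33 in X453_1, and at 14.48, 15.31 and 16.35 in X453_2. All 3 groups overlapped. The log2 fold change was -0.05 in X453_1 (95% CI -0.17 to 0.06, adjusted P = 0.372) and 0.01 in X453_2 (95% CI -0.11 to 0.12, adjusted P = 0.936). This changed with a correction for GC content, which is 62.4% in KDM6B, the highest of the 10 genes. The difference was then 0.25 in X453_1 (limma adjusted P = 7.44e-05) and 0.35 in X453_2 (3.64e-06), and the cause was not tested.

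KDM6A relative to KDM6B was 0.474 ± 0.027 in X453_NC, 0.580 ± 0.06 in X453_1 and 0.452 ± 0.0257 in X453_2 (SD, n = 3). The X453_1 libraries were above the other 6. The log2 ratio differed by 0.29 in X453_1 and -0.07 in X453_2 (exact permutation P = 0.1 and 0.4). After the GC correction the difference of X453_1 was -0.11, in the opposite direction.

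Compared directly, X453_2 and X453_1 differed in 5 of the 10 genes, with RBBP7 higher and SUZ12, JARID2, AEBP2 and KDM6A lower in X453_2 (limma adjusted P of at most 0.05). Among all genes tested 10.2% were higher and 33.9% lower, and the groups did not overlap for 6 of the 10 genes and for 53.7% of all. The difference was -0.14 for JARID2 (adjusted P = 0.0185) and -0.23 for AEBP2 (adjusted P = 0.0298). EED missed the threshold (-0.12, 95% CI -0.21 to -0.02, adjusted P = 0.0502). The median of all genes was -0.08 in this comparison and 0.01 with libraries scaled by the median ratio, under which JARID2 (-0.05, adjusted P = 0.361) and AEBP2 (-0.14, adjusted P = 0.167) no longer passed, as under the GC correction (-0.06 and -0.09, adjusted P = 0.241 and 0.211) and the length correction (-0.01 and -0.11, adjusted P = 0.827 and 0.236), while with scaling KDM6A (-0.17, adjusted P = 0.0256) and RBBP7 did. JARID2 and AEBP2 lost the threshold as well when the X453_1 library r2 (adjusted P of 0.051 for JARID2 and 0.057 for AEBP2) or X453_2 r1 (0.0562 and 0.0632) was left out. JARID2 also lost it without the unsuffixed library of X453_1 (0.0646), and AEBP2 without X453_1 r1 (0.102), without X453_2 r2 (0.104) and with no filter on low values (0.0594). After the length correction KDM6A was at -0.13 (adjusted P = 0.05002). Other genes gained the threshold in some of the 17 alternatives: EZH1, EZH2, EED and KDM6B in 3 each and RBBP4 in 2.

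**Figure D4:**
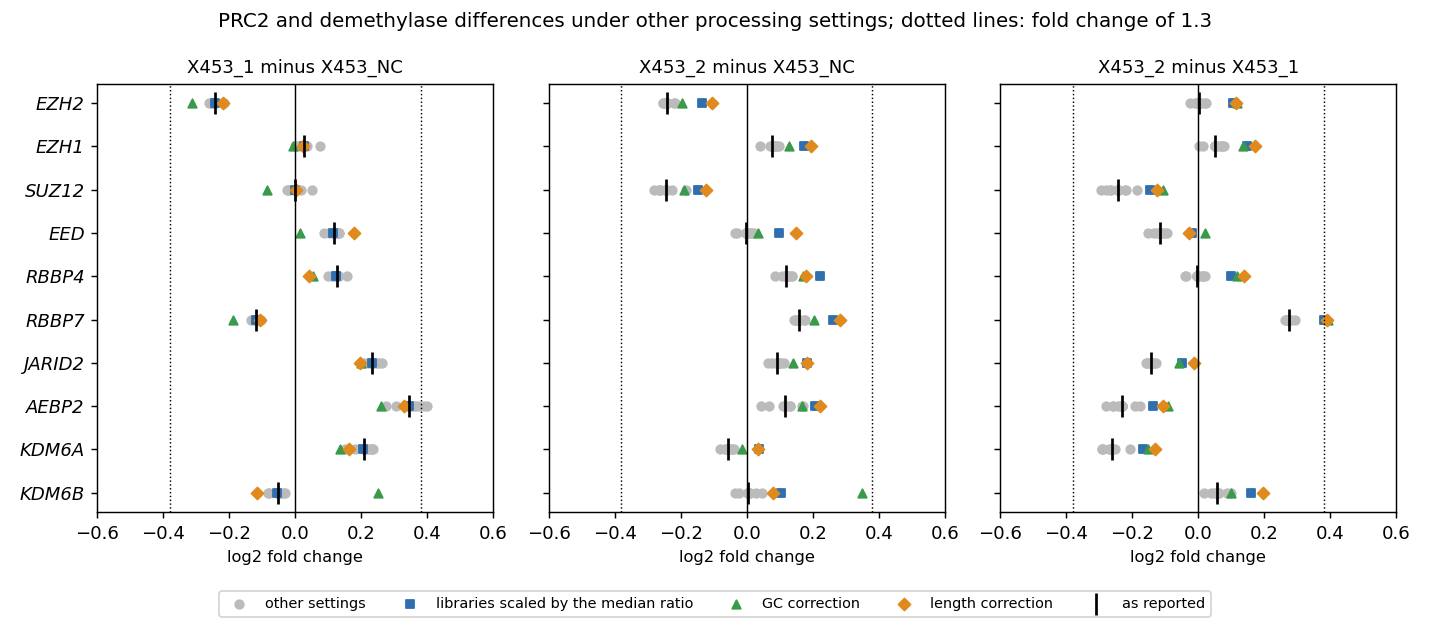
Log2 fold changes of the 10 genes (horizontal axes) as reported and under each alternative setting, for each pair of groups; dotted lines mark a fold change of 1.3. EZH2 is below 0 in both knockdown groups under every setting, RBBP7 in X453_2 is above 0 under every setting, and KDM6B moves right after the GC correction.

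The genes whose profile over the 9 libraries was most like that of EZH2 were SMIM15, FOXN3, CYP51A1, CXorf40B and AIF1L. Likeness was the mean absolute difference of the centred log2(FPKM + 1) values, which was 0.0215 for SMIM15 and 0.0261 for AIF1L. CYP51A1, the lanosterol demethylase of cholesterol synthesis, went from a mean of 11.7 FPKM in X453_NC to 10.01 in X453_1 and 9.93 in X453_2.

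Genes that work with PRC2 were counted in lists of the pathway, by the study's criteria. These called 11.1% of all genes higher and 15.6% lower in X453_1, and 11% higher and 23.1% lower in X453_2. Of 6 tested genes for other PRC2 accessory subunits, 1 was called higher and 2 lower in X453_1, and 0 and 3 in X453_2. In X453_2, 2 were higher and 4 lower by limma at an unadjusted P of at most 0.05. Of all genes 72.9% had such a P in either direction. The median of this list was -0.32 and -0.31 on the log2 scale. EPOP, which joins PRC2 with elongin BC, fell from 7.27 ± 0.151 FPKM to 4.21 ± 0.483 in X453_1 (log2 fold change -0.67, limma adjusted P = 1.1e-05) and to 3 ± 0.1 in X453_2 (-1.05, 4.1e-07). PHF1, a Polycomb-like protein that binds CpG-rich DNA, fell from 23.9 ± 0.948 FPKM to 17.1 ± 0.356 and 17.4 ± 1.38 (log2 fold change -0.46 and -0.44). The 3 lower calls in X453_2 became 1 with scaling by the median ratio, the GC correction or the length correction. PHF1 in X453_2 was then at -0.34, -0.19 and -0.29, short of the limit of 1.3, and after the GC correction EPOP was at -0.29 in X453_1 and -0.64 in X453_2 and PHF1 at -0.27 in X453_1.

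Polycomb repressive complex 1 (PRC1) binds the mark of PRC2 through its CBX subunits and ubiquitinates histone H2A through RING1 or RNF2. Of 25 genes tested, 2 were called higher and 5 lower in X453_1, and 2 higher and 8 lower in X453_2. RYBP, named after its values were seen, was called higher in both (log2 fold change 0.62 and 0.67). RING1, a catalytic subunit, fell from 14.6 ± 0.608 FPKM to 6.04 ± 0.821 in X453_1 and 5.90 ± 0.664 in X453_2 (log2 fold change -1.15 and -1.18, limma adjusted P = 3.3e-06 and 1.8e-06). The chromodomain subunits CBX2 and CBX8 fell as well: the log2 fold change was -0.93 and -0.92 for CBX2 and -0.96 and -0.78 for CBX8. The median of the list was -0.12 and -0.25. With libraries scaled by the median ratio, 3 were called higher and 5 lower in X453_2.

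Among the 3 tested genes of the H2A deubiquitinase, which reverses the PRC1 mark, 2 had an unadjusted limma P of at most 0.05 in X453_1. So did 67.7% of all genes. By limma 0 were called in X453_1 and 2 in X453_2. These were BAP1 and ASXL1, named after their values were seen, with log2 fold changes of -0.26 and -0.33 in X453_1 and -0.49 and -0.47 in X453_2. With scaling by the median ratio, the GC correction or the length correction 1 was called in X453_2, and with the length correction 1 in X453_1. Of 9 genes of the KMT2C and KMT2D complexes, which hold KDM6A, 2 were higher and 1 lower in X453_1, and 1 higher and 2 lower in X453_2. KMT2D, an H3K4 methyltransferase, rose from 6.96 ± 0.361 FPKM to 11.3 ± 0.13 and 9.41 ± 0.299 (log2 fold change 0.63 and 0.39), and PAGR1, a small subunit, had log2 fold changes of -0.51 and -0.68. After the GC correction PAGR1 was at -0.27 in X453_1, no longer called, and at -0.39 in X453_2. The call of KMT2D in X453_2 was lost after the length correction (0.37) and without X453_2 r2 (0.36), the X453_NC library without a suffix (0.36) or X453_NC r1 (0.38).

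RBBP4 and RBBP7 also serve in the NuRD, SIN3 and CAF-1 complexes. Of 17 other genes of these complexes, 1 was higher and 1 lower in X453_1, and 2 higher and 2 lower in X453_2. The deacetylase HDAC1 rose from 141.3 ± 3.68 FPKM to 190.9 ± 2.96 and 207.6 ± 2.2 (log2 fold change 0.43 and 0.55), and MBD3, the methyl-CpG-binding-domain subunit of NuRD, fell from 25.3 ± 1.91 FPKM to 13.8 ± 1.26 and 15.0 ± 1.76 (-0.83 and -0.72). The GC correction ended the call of HDAC1 in X453_1 (0.38) and of MBD3 in X453_2 (-0.37) and left MBD3 at -0.52 in X453_1. Of 15 tested genes for other lysine demethylases, limma called 0 higher and 1 lower in X453_1, and 3 higher and 2 lower in X453_2. At an unadjusted limma P of at most 0.05, 7 were higher and 4 lower in X453_1. Of all genes 67.7% had such a P in either direction. KDM7A, which acts on H3K9 and H3K27, was the gene called lower in both, from 14.7 ± 1.0 FPKM to 9.59 ± 0.215 and 10.4 ± 0.514 (log2 fold change -0.57 and -0.46). In X453_2 it was at -0.37 and no longer called with scaling by the median ratio.

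The HOX genes, known targets of PRC2, went both ways. Of 39 listed, 26 were tested, and 2 were called higher and 3 lower in X453_1, and 2 higher and 5 lower in X453_2. HOXD9 fell from 3.26 ± 0.151 FPKM to 1.13 ± 0.155 and 0.690 ± 0.0557 (log2 fold change -1 and -1.33), and HOXC4 (-0.80 and -1.32) and HOXB3 (-0.38 and -0.99) fell as well, whereas HOXA9 rose (0.44 and 0.50). HOXB3 in X453_1 was at the limit of 1.3, and the call was lost without X453_1 r2 (-0.37), the X453_NC library without a suffix (-0.38) or X453_NC r2 (-0.37) and after the length correction (-0.37). The median of the list was 0.04 in X453_1 and -0.06 in X453_2, and the latter was 0.02 with scaling by the median ratio. How fragments in transcripts shared between neighbouring HOX genes were counted was not stated.

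Genes of DNA replication and cell division were counted because EZH2 is expressed with them. Of 15 tested, 3 were called higher and 0 lower in X453_1, and 6 higher and 0 lower in X453_2 by limma. The same criteria called 11.1% of all genes higher and 15.6% lower in X453_1, and 11% and 23.1% in X453_2. The median of this list was 0.26 and 0.31 on the log2 scale. At an unadjusted limma P of at most 0.05 with no fold limit, 9 were higher and 2 lower in X453_1. In X453_2, 9 were higher and 5 lower. Of all genes, 67.7% and 72.9% had such a P in either direction. By direction, 32.1% of all genes were higher and 32.3% lower in X453_1 at an adjusted limma P of at most 0.05. In X453_2 these shares were 26% and 44.8%. Named after their values were seen, the lower genes in X453_1 were TOP2A (-0.11) and MCM5 (-0.20). In X453_2 they were TOP2A (-0.36), CCNB1 (-0.34), CCNA2 (-0.215), MKI67 (-0.18) and MCM5 (-0.17). MKI67 (0.28) and CCNB1 (0.16) were higher in X453_1. MCM4, a subunit of the replicative helicase, rose from 24.0 ± 0.564 FPKM to 46.6 ± 1.77 and 48.7 ± 1.94 (log2 fold change 0.93 and 0.99). PCNA, the sliding clamp of DNA polymerase, rose by 0.60 and 0.47, and CCNE2, a cyclin of the G1/S transition, rose by 0.54 and 0.49. EZH2 fell in the same libraries, and the part of these genes in its difference was not tested.

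**Figure D5:**
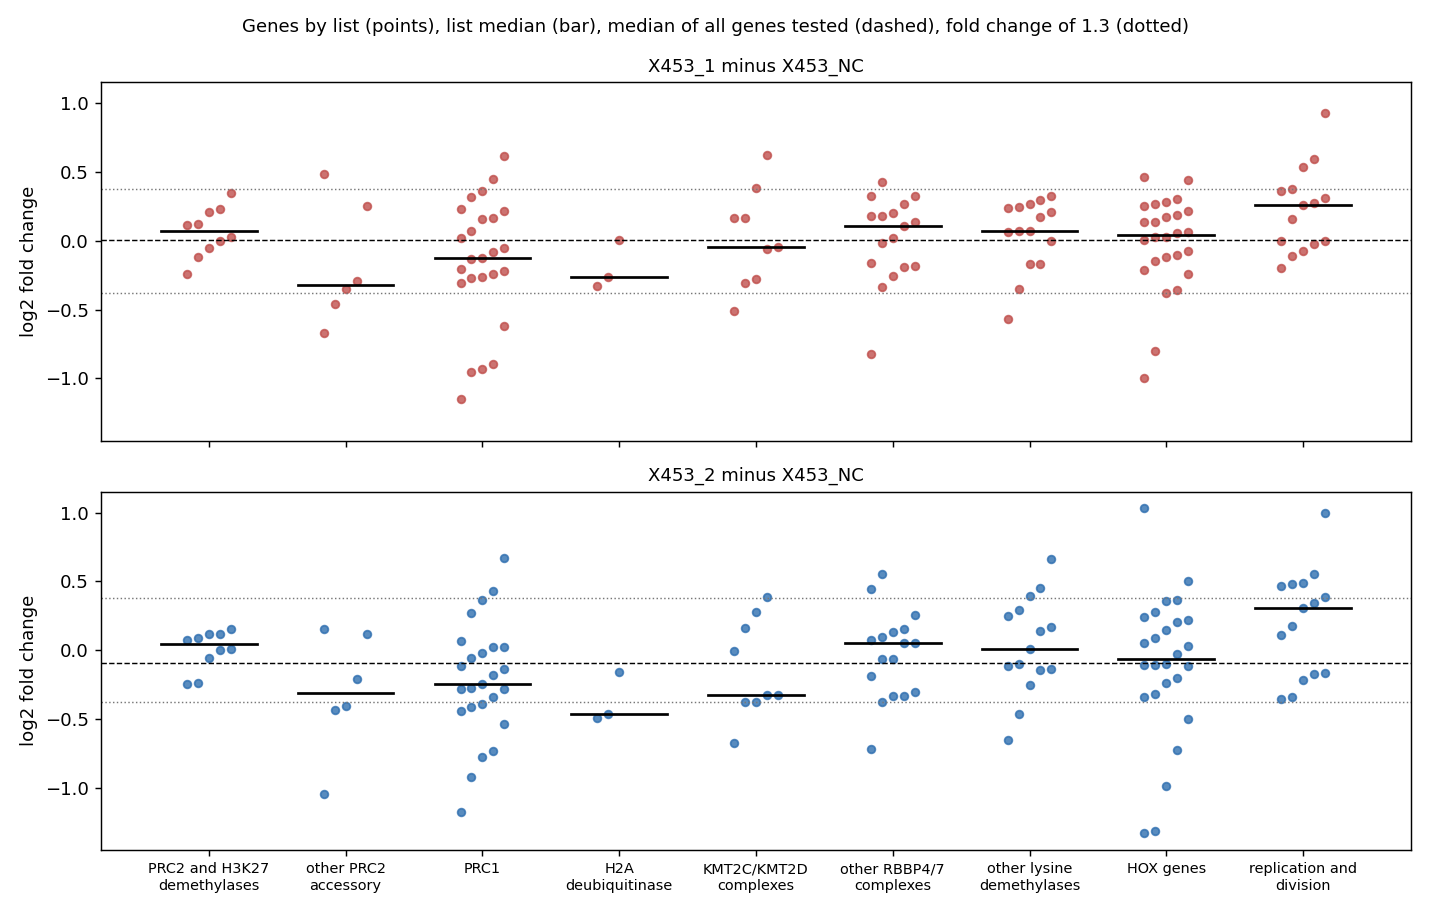
Log2 fold changes of the tested genes (vertical axes) of each list (horizontal axis) in X453_1 and X453_2 against X453_NC. Points are genes, solid bars the list medians, dashed lines the median of all genes tested and dotted lines a fold change of 1.3; the 10 PRC2 and demethylase genes lie within the dotted lines, whereas other lists extend beyond them.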

How the data were processed

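RNA of 9 libraries in 3 groups was sequenced on the BGISEQ-500 platform. The authors deposited 1 table of FPKM per gene and library, rounded to 2 decimals. The submitters' processing notes name Bowtie2 version 2 and the build GRCh37.p13, and the counting tool is not given in the sources used here. The log2 ratios, P and Q values of the authors' own comparisons in the table were not used. Of its 19934 lines, 4 without values were left out.

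Values were tested as log2(FPKM + 1) with limma 3.58.1 in R 4.3.3 (lmFit, eBayes with a trend), with 1 fit over the 9 libraries and no term but the group. SDs are of FPKM, and fold changes of low genes are understated by the added 1. The named genes were all 10 members, up to 4 genes per list called in the same direction in both knockdown groups with the largest mean change, and the 5 profiles closest to EZH2. The members and lists were chosen with earlier results of these data known. EZHIP, ASXL3, HOXB1 and HOXD12 were not analysed here. Some genes that this rule or the marker lists cover are not reported here. Figures were drawn in Python 3.11.15 with matplotlib 3.10.9.

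The differential expression step was tested on simulated data. Alternatives were another added value, other filters, 2 groups per fit, a replicate block, scaling by the median ratio, corrections for GC content and for transcript length (lowess, on 11190 genes, from GENCODE release 29 transcripts), other limits and each library left out in turn. Depth was estimated from FPKM steps, since no counts were given, so that counting errors are estimates and cover counting only. Protein levels and the H3K27 mark were not analysed here.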

Additional observations from a re-analysis of the deposited data

Results flagged for a closer look

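X453_2 and X453_1 differed from each other in 5 of the 10 genes, tested directly in the fit of all 9 libraries (limma adjusted P of at most 0.05). Among all genes tested 10.2% were higher and 33.9% lower at the same threshold, so a share of this size is not particular to these genes. RBBP7 was higher in X453_2 than in X453_1 by 0.274 on the log2 scale, with the 3 libraries of each group apart. The difference was -0.244 for SUZ12, -0.263 for KDM6A, -0.231 for AEBP2 and -0.142 for JARID2, each lower in X453_2 in 3 of 3 libraries than in any library of X453_1. None of the 5 reached a fold change of 1.3. Of 17 alternatives, RBBP7 passed in 17, KDM6A in 16, SUZ12 in 14, JARID2 in 11 and AEBP2 in 9. Among the other genes, EZH1, EZH2, EED and KDM6B passed in 3 each and RBBP4 in 2.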

How the results depend on the processing

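EZH2 kept its direction and an adjusted P of at most 0.05 under all 17 alternatives fitted for it in both knockdown groups (log2 fold change -0.31 to -0.22 in X453_1 and -0.26 to -0.11 in X453_2), as did RBBP7 in both, and JARID2, AEBP2 and KDM6A in X453_1. EED passed in 12 of 17, RBBP4 in 11 and 14, and SUZ12 in X453_2 in 15. Some differences of X453_2 that did not pass as reported did so under alternatives: EZH1, JARID2 and AEBP2 in 3 of 17 each, and EED and KDM6B in 1 each. KDM6B in X453_1 also passed in 1. With no limit on the fold change, 7, 4 and 6 of the 10 genes passed in X453_1, X453_2 and between them, in place of 0. Adding 0.1 FPKM called 1 gene in X453_1 (AEBP2), and leaving out 1 library called 0 to 1 there. Between the knockdown groups, scaling by the median ratio, the GC correction and the length correction called 1 gene each (RBBP7).

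The GC correction reversed KDM6B in X453_1 (0.251), RBBP4 between the knockdown groups (0.116) and the log2 ratio of KDM6A to KDM6B in X453_1 (-0.114). The length correction reversed EED in X453_2 (0.149) and RBBP4 between the knockdown groups (0.14). The cause was not tested. The median of all genes in X453_2 moved from -0.10 to 0.00 with scaling by the median ratio, and the share of calls that were lower from 67.8% to 53.2% in X453_2 and from 71.3% to 38% between the knockdown groups. Over all genes, calls between the knockdown groups went from 984 to 1656 with 0.1 FPKM added, 547 with a minimum of 5 FPKM, 571 with the GC correction and 533 with the length correction.

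The replicate labels did not pair the libraries: the deviations of libraries with the same label correlated at -0.24 to 0.10. With them as a replicate block, 0 of the 10 genes were called by limma in each comparison, and RBBP4 had an adjusted P of 0.0548 and 0.0569. With 3 libraries per group, exact tests of ratios cannot go below P = 0.1. The counts of the lists were computed under the same alternatives, chosen after seeing the data: 496 of these counts stayed within 1.5 times, 11 were higher and 37 lower.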
